A study of Mus musculus with 18 samples.

Results

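Some RNAs of the embryonic digit tip decline as the nail region matures, and 131 of the 42006 probes on the array picked out RNAs of this kind that read higher at E16.5 in embryos without Fzd6. The 131 probes were chosen from measured values. In wild type (WT) each had to read at least 1 lower at E18.5 than at E14.5 on the log2 scale, and no higher at E16.5 than at E14.5. In the knockout (KO) each had to read at least 1 above WT at E16.5 and within 0.8 of WT at E18.5, and to be well above background on all 3 KO E16.5 arrays. Of 2981 probes that met the WT conditions, 2323 were within 0.8 of WT at E18.5, and 1749 of these were well above background on all 3 arrays of KO or WT at E16.5. Among those 1749 probes, 131 read at least 1 higher in KO than in WT at E16.5, and 13 read at least 1 lower. The condition on WT E16.5 favours probes that read low there, which pulls KO minus WT up. Nothing is therefore read from the imbalance of these counts.

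The samples were forelimb digit tips of C57BL/6 embryos from crosses of Fzd6+/- parents, either Fzd6-/- (KO) or WT, collected on day E14.5, E16.5 or E18.5 of gestation. The series' design text gives digit tips as the tissue cut off but speaks of forelimbs where it describes the RNA, so the extent of tissue on the arrays is not settled. There were 18 arrays, 3 for each genotype at each stage, and the labels call every sample mixed in sex. The knockout is carried by the whole embryo, and the labels list no treatment. Every array measured 2 colours, Cy3 for the embryo sample and Cy5 for a pool of cell line RNA common to all arrays, and values are log2 of Cy3 over Cy5. The labels give each array its own individual identifier, but they do not settle whether its RNA came from 1 embryo or from several, so p-values describe the spread between these samples.

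Fzd6 is a Frizzled receptor, a membrane protein that receives Wnt signals. In mice it is known for orienting hair follicles through planar cell polarity, and its loss in mice and humans is known to malform claws and nails. The nail unit forms at the dorsal digit tip, where surface epithelium thickens, folds inward and then keratinises while the mesenchyme, cartilage and bone below it differentiate. The RNA of a digit tip mixes all these tissues, so fewer cells of a type and less RNA per cell cannot be told apart.

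The probes are DNA strands of 60 bases and are named here by ID, because the files and tables used here pair no ID with a gene. The targeted gene was therefore not checked on these arrays, and no tissue marker was read. Members were compared only with the promoter windows of genes, not with the whole genome. One member, Z00076290-1, matched without mismatch, on the + strand of chromosome X (GRCm38.p6, chrX:8849545-8849604). This position is opposite in strand to Gm14502 and within the promoter window listed for it. The span of Gm6592, annotated as protein-coding, covers the same bases, and exon or intron was not determined. Its sequence is shown because it is the only member with a position here.
Z00076290-1: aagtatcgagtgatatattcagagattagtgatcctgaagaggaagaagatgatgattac

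Several members shared sequence, and the 131 probes give 125 targets if each family of such probes is counted as 1. Runs of at least 15 identical bases joined 10 members into 4 families. The largest family held 4 overlapping probes, 2 of them identical over all 60 bases. It is shown because its KO minus WT differences at E14.5 and E16.5 had opposite signs in all 4 probes, and capitals mark bases shared with another member of the family.
Z00075783-1: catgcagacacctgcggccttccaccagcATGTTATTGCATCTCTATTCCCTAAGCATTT
Z00025464-1: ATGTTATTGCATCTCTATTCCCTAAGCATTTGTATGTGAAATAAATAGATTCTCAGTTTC
Z00075781-1: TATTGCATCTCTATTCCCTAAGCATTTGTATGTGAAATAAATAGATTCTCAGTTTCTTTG
Z00076172-1: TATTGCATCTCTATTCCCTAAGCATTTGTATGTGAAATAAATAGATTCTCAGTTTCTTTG
A pair that overlaps by 18 bases followed, shown because its probes agreed closely on every array.
Z00023485-1: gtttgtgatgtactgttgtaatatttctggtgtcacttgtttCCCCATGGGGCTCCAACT
Z00075163-1: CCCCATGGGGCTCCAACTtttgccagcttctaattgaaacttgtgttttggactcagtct
A further pair overlaps by 19 bases and is shown because its arrays spread more widely than those of the other probes named here.
Z00076581-1: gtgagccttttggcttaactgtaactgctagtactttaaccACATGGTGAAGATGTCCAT
Z00034757-1: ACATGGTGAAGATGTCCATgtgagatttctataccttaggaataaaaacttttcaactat
The last pair, Z00035152-1 and Z00046112-1, shared 17 bases. The bases before this run differ between the 2 probes, so a common target is not shown for them.

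The arrays lay on 5 slides in 2 scan batches, with replicates 1 and 2 of each group in the first batch and replicate 3 in the second. At E16.5 and at E18.5 the genotypes lay on separate slides, so slide and genotype cannot be told apart there. At E14.5 only replicate 3 of each genotype shared a slide. Replicates 1 and 2 lay on slide 1 in WT and on slide 2 in KO, so these arrays too were split by slide. The KO E14.5 arrays shared no slide with the KO E16.5 or KO E18.5 arrays, so slide and stage cannot be told apart within KO either, and no fit with slide as a fixed term gives those stage comparisons. Per array, 25100 to 29081 probes exceeded background clearly in Cy3, with 0 saturated Cy3 spots. By mean correlation with the other arrays of its group over the probes tested, WT E18.5 replicate 1 was the lowest of all arrays (0.927). WT E16.5 replicate 2 was the lowest within WT E16.5 (0.951), and the other WT E18.5 arrays lay at 0.936 and 0.944. The medians and main counts at E16.5 and E18.5 are also given without WT E16.5 replicate 2 or WT E18.5 replicate 1.

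The size of the E16.5 difference depended on how the signals were corrected. On the deposited processed signals, which chose the probes, the median difference KO minus WT at E16.5 was 1.27, against 0.04 over all 27989 probes tested. After normexp background correction with an offset of 50 and loess normalization, the scale of all values below unless stated, the median was 0.42 over the 131 probes and 0.02 over all probes tested. Single probes ranged from -0.18 to 2.31, with 127 above 0, 59 at 0.5 or more and 19 at 1 or more, where 0.736% of all probes tested reached 1. In some members of either sign, WT E16.5 replicate 2 read nearer 0 than the other WT E16.5 arrays on this scale. Z00021695-1 read -2.23 there, against -3.90 and -3.51, and Z00024644-1 read 0.92, against 1.89 and 1.78. WT E18.5 replicate 1 did likewise within its group. This lowers the WT mean where ratios are positive, and its cause was not tested. Without WT E16.5 replicate 2 the median was 0.41, with 131 members above 0, 52 at 0.5 or more and 11 at 1 or more, and the rule took 106 probes. These values describe the choice and were not tested. All 131 members were among the probes tested, since being bright on the KO E16.5 arrays was enough to pass, so their number there shows nothing further.

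Only 15 of the 131 probes met every condition of the rule on this second scale. The fall of at least 1 in WT was met by 42, the condition on WT E16.5 by 128, the excess in KO E16.5 by 19 and the E18.5 condition by 128. The description of these probes as declining RNAs that stay high at E16.5 without Fzd6 thus held in full size for 15 probes under the other correction. The direction at E16.5 was kept by 127 of 131, but the same arrays had chosen it, so nothing is read from this count. The rule itself took 33 probes on that scale.

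Brightness set the members apart from each other. In WT E16.5, 60 members were well above background on all 3 arrays, 34 on 1 or 2 arrays and 37 on none. The 60 bright members had a median KO minus WT difference at E16.5 of 0.72, and all 19 that reached 1 were among them. The median was 0.36 for the 34 members and 0.26 for the 37 dim ones, although on processed signals the order was opposite, with 1.18, 1.30 and 1.61. Without WT E16.5 replicate 2 the medians were 0.71, 0.31 and 0.27. At E18.5, 45 members were well above background on all KO arrays and 52 on all WT arrays, while 54 were so on no KO array and 48 on no WT array. The part of signal correction in these differences was not tested.

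The excess at E16.5 lay mainly in the digit-tip channel. The median difference of the members in log2 processed Cy3 signal, KO minus WT at E16.5, was 1.27, against 0.11 over all probes tested. In Cy5, which carries the common reference, it was 0.05 for the members and 0.07 over all probes tested. In 28 members, however, the Cy5 signal differed between the genotypes by more than 0.5 in either direction. All 3 KO E16.5 arrays lay above all 3 WT E16.5 arrays in 95 of 131 members, against 15.7% of all probes tested, and in 107 without WT E16.5 replicate 2. These arrays chose the members, so the count restates the choice and nothing is read from it.

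Set side by side, the medians of the arrays show the course of the whole group. The median log2 ratio of the members on the KO arrays was 0.79, 0.69 and 0.71 at E14.5, 0.47, 0.45 and 0.48 at E16.5, and 0.02, -0.01 and 0.02 at E18.5. On the WT arrays it was 0.63, 0.51 and 0.62 at E14.5, 0.08, 0.03 and 0.11 at E16.5, and -0.00, -0.01 and -0.02 at E18.5. The KO E16.5 arrays thus lay between the WT E14.5 and the WT E16.5 arrays, without overlap. In WT the median change from E14.5 was -0.55 at E16.5 and -0.60 at E18.5, so on this scale the median WT level at E16.5 was already close to that at E18.5. The KO E16.5 mean exceeded even the WT E14.5 mean in 37 members. At E18.5 the median KO minus WT difference was 0.01, with 67 members above 0. Without WT E18.5 replicate 1 it was -0.01, with 63 above 0.

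The probe with the largest E16.5 difference was Z00023199-1. It read 3.60, 3.71 and 3.51 in KO E16.5, against 1.63, 0.83 and 1.43 in WT E16.5, a difference of 2.31, or 2.07 without WT replicate 2. Every KO array lay above every WT array by more than the spread within either group. Its Cy5 signal also differed, by 1.51 (KO minus WT, log2 processed signal, beside 2.61 in Cy3), and on processed signals the difference in ratio was 1.11. At E14.5 it read 4.46, 4.54 and 4.47 in KO, against 3.68, 3.46 and 3.71 in WT, and this excess of 0.87 ± 0.24 (SE) passed the test (limma adjusted p = 0.0306). At E18.5 it read 2.40, 1.62 and 1.93 in KO, against 0.16, 0.99 and 1.07 in WT. On this scale the KO arrays were therefore the higher ones at all 3 stages. The E18.5 difference of 1.24, or 0.95 without WT E18.5 replicate 1, exceeds the limit of the rule here. On processed signals, however, the genotypes overlapped at E14.5 and at E18.5, and the E14.5 means were 6.10 in KO and 6.04 in WT. The WT E18.5 arrays read 4.60, 3.29 and 3.32 on processed signals, so replicate 1 was the highest of them there.
Z00023199-1: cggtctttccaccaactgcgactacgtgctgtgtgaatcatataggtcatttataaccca

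For some members the genotype difference at E14.5 did not pass, which does not show equal levels. The rule had set their difference at E16.5. Z00024644-1 read 3.36, 3.29 and 3.61 in KO E14.5, against 3.79, 3.56 and 3.73 in WT E14.5, and the difference of -0.28 ± 0.29 (SE) did not pass (limma adjusted p = 0.672). At E16.5 it read 3.06, 2.94 and 2.82 in KO, against 1.89, 0.92 and 1.78 in WT. The KO arrays formed a tight group above all WT arrays, of which replicate 2 was the lowest. On processed signals the WT E16.5 arrays read 3.13, 2.97 and 3.15, so replicate 2 lay close to the others there. On the normexp scale the E18.5 values were 1.46, 1.38 and 1.30 in KO, against 0.21, 1.64 and 1.31 in WT. The groups overlapped at E18.5, and WT replicate 1 stood below the rest. Z00032156-1 followed the same course, with 2.78, 2.53 and 2.83 in KO E16.5, against 1.76, 0.66 and 1.83 in WT E16.5, and a non-passing E14.5 difference of -0.13 ± 0.28 (SE, limma adjusted p = 0.874). Z00022924-1 had a small spread in both groups, with 0.94, 0.88 and 1.12 in KO E16.5, against -0.14, -0.23 and -0.09 in WT E16.5. In KO its E16.5 level was 0.38 ± 0.14 (SE) above its E14.5 level, which did not pass (limma adjusted p = 0.0683).
Z00024644-1: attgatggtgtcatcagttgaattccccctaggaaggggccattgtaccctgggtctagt
Z00022924-1: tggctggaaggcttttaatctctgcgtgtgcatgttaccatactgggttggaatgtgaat

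Other probes with a large E16.5 difference declined in both genotypes, by less in KO up to E16.5. Z00041516-1 read 0.88, 0.52 and 0.92 in KO E16.5, against -0.87, -0.45 and -0.09 in WT E16.5. In KO it fell by 1.05 ± 0.19 (SE) between E14.5 and E16.5 (limma adjusted p = 0.000776), and by E18.5 it read -1.26, -1.25 and -1.31 in KO, against -0.45, -1.11 and -0.83 in WT. All KO E18.5 arrays were then below all WT E18.5 arrays, in contrast to E16.5. Z00032681-1 read 2.08, 2.06 and 2.41 in KO E16.5, against 0.91, 0.80 and 1.53 in WT E16.5.

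The overlapping probes Z00023485-1 and Z00075163-1 gave nearly the same values on every array. Z00023485-1 read 1.09, 1.00 and 1.10 in KO E16.5, against -0.02, -0.05 and 0.25 in WT E16.5. Z00075163-1 read 1.13, 1.08 and 1.09 in KO E16.5, against -0.02, -0.01 and 0.30 in WT E16.5. Neither pair of groups overlapped. At E14.5 the KO excess was 0.54 ± 0.10 (SE) for Z00023485-1 (limma adjusted p = 0.00236) and 0.55 ± 0.11 for Z00075163-1 (limma adjusted p = 0.00397). At E18.5 the order was opposite, with KO minus WT differences of -0.50 and -0.56. These RNAs thus covered a wider range in KO, with limma differences between KO E18.5 and KO E14.5 of -3.55 and -3.65.

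The pair Z00076581-1 and Z00034757-1 had the largest WT decline of all members and a wide spread. Z00076581-1 read 0.16, 1.64 and 2.45 in KO E16.5, against 0.61, 0.48 and -0.48 in WT E16.5, so the groups overlapped. At E14.5 it read 2.22, 4.47 and 2.30 in KO, against 2.99, 3.24 and 0.93 in WT. Z00034757-1 moved with it, at 0.15, 1.49 and 2.32 in KO E16.5, against 0.47, 0.38 and -0.45 in WT E16.5. With SDs of 1.16 and 1.09 in KO E16.5, the differences of 1.21 and 1.19 were close to the SD between KO arrays. The same arrays were high or low for both probes, which share a target.

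The comparisons with KO E14.5, the 1 group that the rule did not use, were tested with limma across all 27989 probes. Each of them still shares a group with the rule. WT E14.5 was chosen high, which pulls KO minus WT at E14.5 down, and KO E16.5 was chosen high, which pulls KO E16.5 minus KO E14.5 up. KO E18.5 was held close to a low WT E18.5.

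At E14.5, 32 of 131 members were higher in KO than in WT, against 3.72% of all probes tested, and 10 were lower, against 5.22%. The other 89 did not pass. The median KO minus WT difference was 0.21 over the members and -0.00 over all probes tested. Within scan batches it was 0.24 (first) and 0.17 (second), with 92 of 131 members above 0 in the first (49.5% of all probes tested) and 87 in the second (50.4%). Among the 60 bright members, 20 were higher and 9 lower. The counts depended on the fit, as did the shares of all probes tested that passed. Without WT E14.5 replicate 2, 19 members were higher (2.04% of all) and 6 lower (3.15%), and 6 were also lower without KO E14.5 replicate 2 (3.51%). Within the first scan batch 16 were higher (1.49% of all) and 1 lower (2.49%). With median centring in place of loess, 11 were higher (0.661% of all) and 2 lower (0.879%). With slide as a fixed term 8 were higher (0.836% of all) and 0 lower (1.38%), where 11 were lower at an unadjusted limma p under 0.05. Without background subtraction 42 were higher (5.99% of all) and 19 lower (8.11%).

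The largest KO excess at E14.5 was that of Z00026198-1. It read 1.97, 2.12 and 1.68 in KO E14.5, against 0.48, 0.40 and 0.43 in WT E14.5, a difference of 1.49 ± 0.18 (SE, limma adjusted p = 8.6e-05). All KO arrays lay far above the WT arrays. In KO it then fell by 2.09 ± 0.18 (SE) to E16.5 (limma adjusted p = 6.44e-07), where it read -0.35, 0.05 and -0.19 in KO, against -1.04, -0.53 and -0.90 in WT. Z00024204-1 had higher ratios, with 4.86, 5.46 and 4.85 in KO E14.5, against 3.73, 3.78 and 3.86 in WT E14.5. Its difference of 1.27 ± 0.30 (SE) passed (limma adjusted p = 0.0124), but not without KO E14.5 replicate 2 (limma adjusted p = 0.0706) or without WT E14.5 replicate 1 (0.0506), with adjusted p up to 0.324 over the alternatives. At E16.5 it read 3.47, 2.95 and 3.17 in KO, against 2.35, 1.27 and 2.54 in WT.
Z00026198-1: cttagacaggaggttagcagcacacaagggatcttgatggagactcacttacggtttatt
Z00024204-1: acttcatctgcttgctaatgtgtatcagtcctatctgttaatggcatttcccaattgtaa

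Further members were higher in KO at E14.5 but dim by E16.5 in WT. Z00061148-1 read 1.55, 1.07 and 1.71 in KO E14.5, against 0.41, 0.33 and -0.00 in WT E14.5 (limma adjusted p = 2e-04). Z00075017-1 read 1.31, 1.18 and 2.04 in KO E14.5, against 0.70, 0.25 and 0.35 in WT E14.5 (limma adjusted p = 0.006). Neither pair of groups overlapped, and each was well above background on only 1 WT E16.5 array. On processed signals neither call held, with adjusted p of 0.0881 for Z00061148-1 and 0.1 for Z00075017-1 by limma, nor did it on the value table (0.0823 and 0.0944). That of Z00075017-1 was also lost within the first scan batch (limma adjusted p = 0.125). Z00056130-1 read 1.80, 1.57 and 1.50 in KO E14.5, against 0.61, 0.53 and 0.60 in WT E14.5, a difference of 1.05 ± 0.10 (SE, limma adjusted p = 6.22e-06). It was not well above background on any WT E16.5 array, so the E16.5 difference is a bound, at least 1.14-fold higher in KO. Such bounds set the dim group to the higher of its own Cy3 signal and the lowest signal well above background on each array, and they are open to dye bias because dyes were not swapped.

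The members lower in KO at E14.5 had the opposite sign at E16.5, where the rule had chosen KO to be higher. Z00022468-1 read 2.32, 1.66 and 2.36 in KO E14.5, against 3.46, 3.37 and 3.45 in WT E14.5, a difference of -1.32 ± 0.21 (SE, limma adjusted p = 0.000806). At E16.5 it read 2.82, 3.33 and 2.78 in KO, against 2.01, 1.27 and 1.57 in WT. All KO arrays were thus below WT at E14.5 and above WT at E16.5. In KO it rose by 0.87 ± 0.21 (SE) between the stages (limma adjusted p = 0.00734), while the WT mean was lower at E16.5, and by E18.5 it read 0.88, 0.87 and 0.79 in KO, against 0.27, 0.73 and 0.82 in WT. Its mean was highest at E16.5 among the KO stages and at E14.5 among the WT stages. With median centring neither the rise in KO (0.73, limma adjusted p = 0.224) nor the E14.5 difference (0.0609) passed, and the E14.5 difference did not pass with slide as a fixed term (0.0999).
Z00022468-1: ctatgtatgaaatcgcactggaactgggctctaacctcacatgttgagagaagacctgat

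All 4 probes of the largest family were lower in KO at E14.5. Z00075783-1 read 0.81, 0.39 and 0.70 in KO E14.5, against 1.74, 1.38 and 1.68 in WT E14.5, a difference of -0.97 ± 0.21 (SE, limma adjusted p = 0.00805). At E16.5 it read 0.57, 1.51 and 0.69 in KO, against -0.11, 0.11 and -0.25 in WT, where KO replicate 2 was the highest array. The other family members differed at E14.5 by -0.93 (Z00075781-1), -0.92 (Z00025464-1) and -0.89 (Z00076172-1), and at E16.5 by 0.75, 0.82 and 0.87. The 2 identical probes, Z00075781-1 and Z00076172-1, read 0.42, 1.11 and 0.43 and 0.47, 1.17 and 0.59 on the KO E16.5 arrays, which gives the agreement between spots of 1 sequence. In KO the level of Z00075783-1 at E16.5 was 0.29 ± 0.21 (SE) above that at E14.5, which did not pass (limma adjusted p = 0.369). None of the 4 E14.5 differences of the family passed within the first scan batch alone or with slide as a fixed term, where they ranged from -0.97 to -0.79. With median centring the limma adjusted p was 0.0588 for Z00075783-1, 0.0516 for Z00025464-1 and 0.0648 for Z00076172-1, and on processed signals it was 0.129 for Z00075781-1 and 0.168 for Z00076172-1.

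The array carried 4 further probes of this family that the rule did not take. Z00063676-1, Z00075784-1 and Z00075785-1 were higher in KO at E16.5 by 1.18, 1.34 and 1.09 on processed signals. They missed the rule at E18.5, where the KO minus WT differences were -1.02, -1.06 and -1.04. Z00075782-1 missed it at E16.5, with 0.95. On the normexp scale the 4 probes were higher in KO at E16.5 by 0.84, 0.71, 0.72 and 0.69, close to the values of the members. Z00076290-1 also has relatives on the array, since 5 other probes shared 21 to 33 bases with it, so its signal cannot be assigned to a single gene copy. It read 0.77, 0.69 and 1.06 in KO E16.5, against -0.05, -0.04 and 0.65 in WT E16.5. Its 3 tested relatives, Z00029991-1, Z00077310-1 and Z00077311-1, differed by -0.19, 0.11 and 0.45. On processed signals these relatives differed by 1.53, 0.32 and 0.96. Over the array, 8 tested probes outside the rule shared at least 20 bases with a member. They are the 4 further probes of the largest family, the 3 tested relatives of Z00076290-1, and Z00055332-1, which shared 28 bases with Z00038597-1. All 8 were higher in KO at E16.5 on processed signals, with 5 at 1 or more, and 7 of 8 on the normexp scale. These counts use group means. Shares over all probes tested are at hand for replicate 3 alone, an unlike measure with 1 array per genotype. There 53.8% were above 0 and 3.16% at 1 or more on processed signals. The 8 probes share sequence with members chosen high, so nothing is read from these counts.

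From E14.5 to E16.5 within KO, 52 of 131 members fell, against 11.5% of all probes tested, and 9 rose, against 12.2%, while 70 did not pass. The median difference was -0.31, against -0.02 over all probes tested, with -0.33 within the first scan batch and -0.24 within the second. Fewer members rose under some settings, at 5 without KO E14.5 replicate 2 (9.51% of all probes tested), 5 without KO E16.5 replicate 2 (9.84%) and 5 within the first scan batch (7.81%, where 36 members and 5.51% of all fell). With median centring 4 rose (3.72% of all) and 32 fell (1.52%). This comparison and that of the genotypes at E14.5 use the same KO E14.5 arrays, so they are not independent. Of the 32 members called higher in KO at E14.5, 31 were among the 52 that fell. Of the 10 called lower, 4 were among the 9 that rose.

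Most of the members that rose in KO did so by less than 1. Z00040185-1 rose most, by 1.13 ± 0.15 (SE, limma adjusted p = 6.67e-05), with 0.88, 0.81 and 1.17 in KO E14.5 and 2.11, 2.33 and 1.81 in KO E16.5. In WT it read 1.51, 1.46 and 1.50 at E14.5 and 1.16, 0.54 and 0.97 at E16.5, so KO E16.5 was above every WT array of either stage. Z00028781-1 read 1.96, 2.85 and 2.28 in KO E16.5, against 0.60, 0.69 and 1.44 in WT E16.5, with no overlap. On processed signals the groups overlapped, with 3.86, 5.32 and 4.97 in KO E16.5, against 1.06, 3.09 and 4.62 in WT E16.5. Its Cy5 signal also differed, by -0.55 (KO minus WT at E16.5, log2 processed signal, beside 1.24 in Cy3). Its rise in KO of 0.78 ± 0.24 (SE, limma adjusted p = 0.0253) did not pass without KO E16.5 replicate 2 (0.54, limma adjusted p = 0.136) or replicate 3 (0.0501), nor without KO E14.5 replicate 2 (0.0915) or replicate 3 (0.0526), and adjusted p over the alternatives reached 0.209. Z00029818-1 read 0.84, 0.63 and 0.81 in KO E16.5, against 0.27, 0.01 and 0.21 in WT E16.5, and 0.14, -0.03 and 0.18 in KO E14.5. Its rise in KO did not pass on processed signals (limma adjusted p = 0.0572). Z00046673-1 rose by 0.93 ± 0.18 (SE, limma adjusted p = 0.00115). On this scale its WT mean did not fall, at -0.91 at E14.5 and -0.81 at E18.5. The WT E18.5 arrays read -0.31, -1.04 and -1.09, of which replicates 2 and 3 lay below all WT E14.5 arrays. The decline that chose the probe is seen on processed signals.
Z00040185-1: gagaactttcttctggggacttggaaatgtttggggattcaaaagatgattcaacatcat
Z00028781-1: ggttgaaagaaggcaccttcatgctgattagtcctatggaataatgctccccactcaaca

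Z00011446-1 and Z00047725-1 were among the members that fell in KO with little spread. Z00011446-1 read 2.46, 2.45 and 2.49 in KO E14.5 and 1.02, 0.49 and 0.84 in KO E16.5, a fall of 1.68 ± 0.15 (SE, limma adjusted p = 8.68e-07). In WT it read 1.93, 2.02 and 2.08 at E14.5 and -0.14, -0.49 and -0.16 at E16.5. Z00047725-1 read 1.72, 1.49 and 1.56 in KO E16.5, against 0.84, 0.42 and 0.81 in WT E16.5, and 3.23, 3.04 and 3.10 in KO E14.5, against 2.18, 2.04 and 2.34 in WT E14.5. Both declined in KO and in WT, and Z00047725-1 began from a KO level higher by 0.94 ± 0.12 (SE, limma adjusted p = 0.000133).

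From E14.5 to E18.5 within KO, 107 of 131 members fell, against 25.7% of all probes tested, and 24 did not pass. The rule held KO E18.5 near a WT E18.5 mean chosen to lie below WT E14.5, so this count in large part restates the choice. None rose, against 24.3% of all probes tested, and none was higher at an unadjusted limma p under 0.05, although 1 member was called higher on processed signals, on the value table and without background subtraction. The median difference was -0.81, against -0.02 over all probes tested. All 131 members had a lower mean in KO E18.5 than in KO E16.5, the group chosen high.

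The E16.5 difference could be read on replicate 3 for probes chosen without it. With the rule applied to replicates 1 and 2 alone, and no condition on any replicate 3 array, 159 probes were chosen. On replicate 3, from the second scan batch, KO E16.5 was above WT E16.5 for 145 of these 159 probes (91.2%), against 54.5% of the 26438 probes well above background on KO E16.5 replicates 1 and 2. The difference was at least 1 for 65, against 2.7% of the 26438, and its median was 0.88, against 0.03. With normexp and loess for both steps, 67 probes were chosen and 66 were higher in KO (98.5%), against 53.2% of the 26438, but 11 reached 1. Kept to the probes tested, a set that also uses the replicate 3 flags, 144 of 158 were higher (91.1%, against 53.8% of all probes tested), and 84 of the 158 were members. There was 1 array per genotype in this reading, on different slides, so slide and genotype cannot be told apart. The probes are not independent replicates, and some share sequence. The shares given for comparison were not limited to probes that fell in WT. The counts therefore describe these 2 arrays and were not tested.

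The threshold of 1 at E16.5 separated probes of like values. On processed signals Z00076126-1 and Z00074694-1 lay just inside, at 1.0001 and 1.0003, and Z00059003-1 and Z00020599-1 just outside, at 0.9973 and 0.9943. On the normexp scale the same 4 probes differed by 0.86, 0.08, 0.47 and 1.03, so the probe with the largest value of the 4 was not a member. The rule took 225 probes at a threshold of 0.8 and 74 at 1.2.

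The member probes were somewhat rich in A and T. Their median GC content was 41.7%, against 45% in all probes tested and 43.3% on the whole array, with a range of 21.7% to 60%. T made up 30.4% of their bases, against 27.9% in the probes tested, and C made up 19.6%, against 22.4%. The letters AATAAA on the printed strand, the usual polyadenylation signal of transcript ends, were found in 18 members (13.7%), against 7.69% of probes tested. Of the 18, 3 are overlapping probes of the largest family and share 1 stretch, which leaves 16 of 125 targets with each family counted once. ATTTA, the core of AU-rich elements, was found in 13 members (9.92%), against 7.24%. A match of letters is a description of the probe and not of a working site, and the motifs were chosen after the data were seen.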

How the data were processed

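Scanner files were deposited for every array, written by Agilent Feature Extraction 9.5.1.1 per the file headers. The deposited intensities of both dyes are spot means with local backgrounds, and processed signals from which the scanner software had taken the background and evened out the dyes. Dyes were not swapped. A series table deposited for 25030 probes holds log10 values of unstated scale and centring. Set against each array's scanner values it followed log10 of processed Cy3 over Cy5 (r = 1.000), which gives scale and direction, plus a constant per probe whose origin stays unknown. Its column medians ran from 2.44 to 2.48, it listed 82 of the 131 members, and it served as an alternative.

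Members were chosen on log2 of processed Cy3 over Cy5, averaged per probe over non-control spots. For all fits, mean intensities were corrected with normexp (offset 50) and normalized by loess within arrays in R 4.3.3 with limma 3.58.1. Control spots (1417 of 43451) and 4 to 34 outlier spots per array were left out. A probe was tested if all 3 arrays of a group flagged its Cy3 signal as well above background, with at least 2 values in every group. One mean per group was fitted to the 18 arrays with lmFit and eBayes, and p-values were adjusted over 27989 probes by Benjamini-Hochberg (threshold 0.05, two-sided). The fit was tested on simulated data. The number of arrays limits the precision.

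The members and lists were chosen with earlier results of these data known. Named probes are the 12 largest E16.5 differences, the 5 largest WT declines, the 5 largest called differences each way at E14.5 and between KO E14.5 and E16.5, and 2 probes on each side of the threshold. Probes chosen after their values were seen are the relatives by sequence and the positioned probe. The reading on replicate 3 with no condition on those arrays, and the values without WT E16.5 replicate 2 or WT E18.5 replicate 1, were added after the data were seen. The intended gene lists could not be used without gene names.

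Replicate numbers were checked as pairs by correlating deviations from group means. For KO E16.5 and KO E14.5 the correlations were 0.23, 0.35 and 0.18, all above 0.1. The reported fit used no pairs, and replicate number entered as a block only in an alternative. For KO and WT at E14.5 they were -0.22, 0.24 and 0.07, and for KO E18.5 and KO E14.5 -0.21, 0.17 and 0.15.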

Additional observations from a re-analysis of the deposited data

Results flagged for a closer look

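Several named probes had a KO minus WT difference of one sign at E14.5 and of the other at E16.5, with all 3 KO arrays on one side of all 3 WT arrays at each stage. They were Z00022468-1 (-1.32 at E14.5 and 1.36 at E16.5), Z00075783-1 (-0.97 and 1.01), Z00075781-1 (-0.93 and 0.75), Z00025464-1 (-0.92 and 0.82) and Z00076172-1 (-0.89 and 0.87). The last 4 share sequence and count as 1 target. The difference between the stages was not tested, and the E16.5 sign was fixed by the choice of probes. In all, 8 members showed this pattern, the others being Z00029841-1 (-0.87 and 0.46), Z00040185-1 (-0.54 and 1.19) and Z00071423-1 (-0.37 and 0.39).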

How the results depend on the processing

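Genotypes lie on different slides at E16.5 and E18.5, and in replicates 1 and 2 at E14.5. Dim probes carry only bounds, and the members were chosen on noisy means, so sizes are limits of these 18 arrays. Where a count or median below differs from the reported one, the cause was not tested, apart from the smaller number of arrays or members that some alternatives hold. At E14.5 the 32 higher and 10 lower members became 11 and 2 with median centring, 19 and 4 on the value table (82 members), 16 and 1 within the first scan batch, and 8 and 0 with slide as a fixed term. Without background subtraction 19 were lower. Leaving out 1 array gave 19 to 30 higher and 6 to 9 lower, with the fewest higher without WT E14.5 replicate 2 and 6 lower without replicate 2 of WT or of KO at E14.5. From E14.5 to E16.5 in KO, the 9 rising members became 5 on processed signals, 4 with median centring (where 32 fell), 3 on the value table, 5 within the first scan batch and 5 to 8 with 1 array left out. From E14.5 to E18.5 in KO, 1 member was called higher on processed signals, on the value table and without background subtraction, against 0 reported. The replicate block gave 32 higher and 9 lower at E14.5, 8 and 52 from E14.5 to E16.5 in KO, and 0 and 107 from E14.5 to E18.5, and moved no count by over 1.5 times. The slide as a random block had a correlation of -0.03.

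The rule took 33 probes on normexp and loess values, 82 on the value table, 209 without the background condition, 225 at an E16.5 threshold of 0.8, 74 at 1.2, and 106 to 165 with 1 array left out, lowest without WT E16.5 replicate 2 and highest without WT E16.5 replicate 3. The median KO minus WT at E16.5 of 0.42 became 1.27 on processed signals, 0.47 without background subtraction, 0.40 in the second scan batch, and 0.41 to 0.46 with 1 array left out. The median KO minus WT at E18.5 of 0.01 became 0.0886 on processed signals, and its sign turned to -0.0073 in the first scan batch. It ranged from -0.0118 to 0.007 with 1 WT E18.5 array left out, an alternative added after the data were seen. The median WT difference E16.5 minus E14.5 was -1.66 on processed signals. The median WT difference E18.5 minus E14.5 was -1.93 on processed signals, -0.72 without background subtraction, -0.58 in the first and -0.66 in the second scan batch, and -0.64 to -0.60 with 1 WT E18.5 array left out. The share of probes higher in KO on replicate 3 was 98.5% on normexp values, against 91.1% among the probes tested and 91.2% with no condition on replicate 3, an alternative added after the data were seen. Of 325 values of named tested differences under the alternatives, 291 stayed past the threshold, 34 did not and 0 turned sign. GC content below that of the background held for both background sets.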
